A study of Rattus norvegicus with 10 samples.

Results

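The immediate early genes of the AP-1 and EGR group were followed in rat lung by RNA sequencing of messenger RNA. They were taken from the deposited table by symbol, as Fos, Fosb, Fosl2, Jun, Junb, Jund, Egr1, Ier2, Ier3 and Atf3. The rule names symbols and uses no measured value, but the symbols and the gene lists read beside them were chosen with earlier results of these data known, so their counts are descriptions. Of these 10 symbols 9 named a row, out of 22250 genes in the table. No row carried the name Ier2, so Ier2 was not analysed here. The series holds 10 lung libraries, XBS 1 to 5 and MOD 1 to 5. The design text describes rats with neutrophilic asthma induced by ovalbumin, the allergen of egg white, together with bacterial lipopolysaccharide, to which a formula abbreviated SP was given. The labels expand neither XBS nor MOD and tie neither name to SP, and they give no strain, age, dose or time, so the groups are called by these names. They also list the human bronchial line 16HBE for every library, while the gene identifiers are rat, and the 6 alveolar type 2 markers together reached 15724 to 32066.5 CPM (reads scaled to library size) in XBS libraries and 23540 to 30300.5 CPM in MOD libraries. Whether each library is 1 animal is not said in the labels, so p-values cover only the variation among these libraries, part of which may be technical. Totals ran from 11998979 to 15518929 reads per library.

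Immediate early genes are switched on within minutes by growth factors, cytokines, mechanical stress and injury, through transcription factors that already wait in the cell and need no new protein. FOS and JUN proteins pair through leucine zippers into AP-1, a dimer that binds DNA and drives genes of inflammation, repair and growth, while EGR1 is a zinc finger factor induced by the same signals. In lung these genes respond to inflammatory and mechanical stimuli and their transcripts are short-lived. They are also sensitive to tissue handling, and the part of handling in the levels below was not tested.

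Over the whole set, 8 of 9 genes had a negative fold change in XBS against MOD, where 48.1% of all 14320 genes tested had one, and the median log2 fold change was -0.27 for the set and 0.01 for all genes tested. None of the 9 passed an adjusted p of 0.05 by edgeR, as 0.0768% of all genes tested did (0.0279% higher and 0.0489% lower in XBS). At an unadjusted p under 0.05 edgeR gave 2 of the 9, Jun and Jund, both lower in XBS, as were 5.78% of all genes tested, with 7.4% higher. DESeq2 called the same pair, with 2.58% of its genes called, and limma voom with sample weights called 0 of 9, with 0.461% called. The direction of the set rested in part on MOD 3: without that library 6 of 9 genes were lower in XBS.

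**Figure D1:**
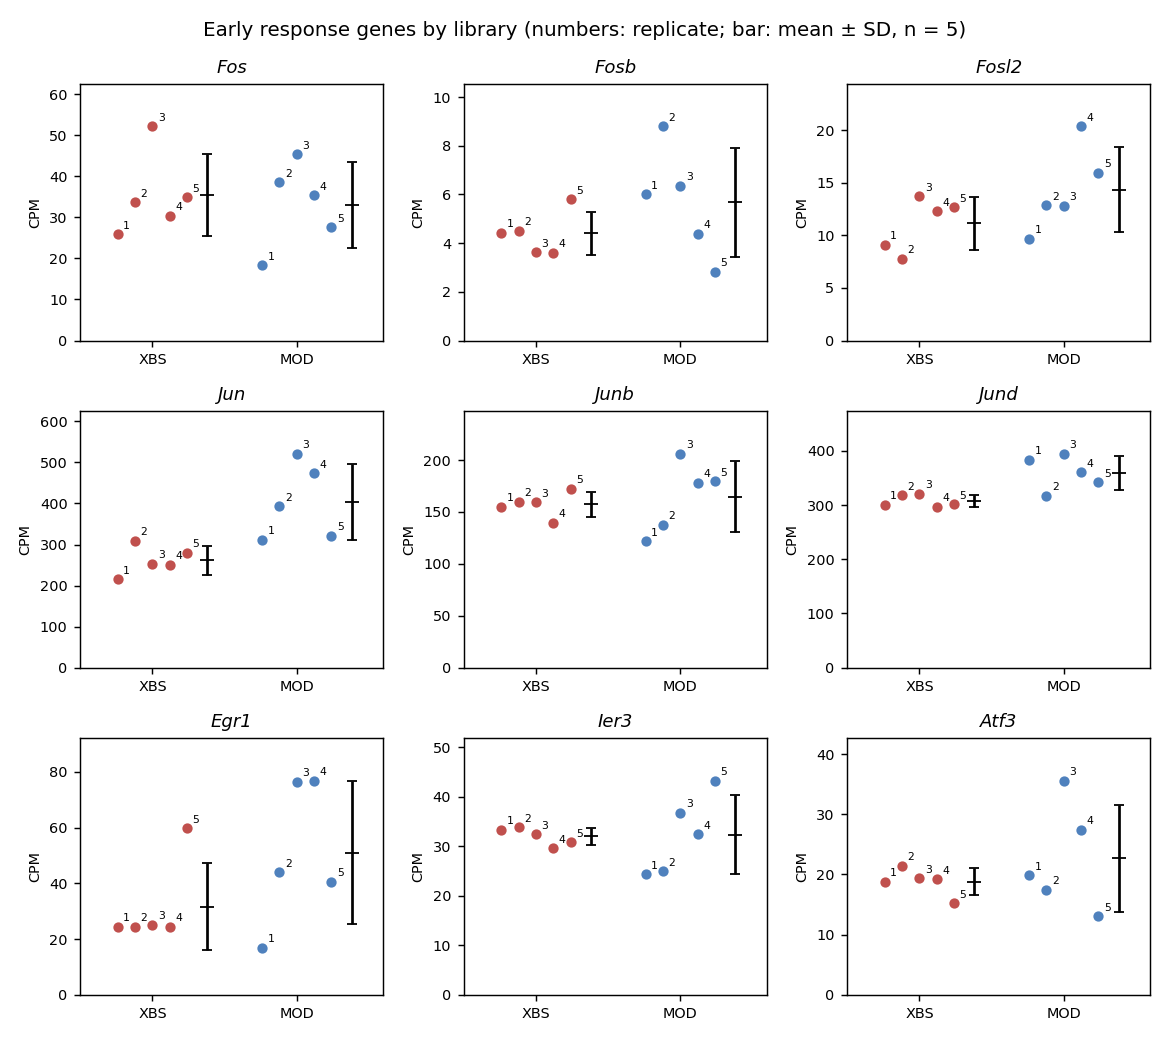
CPM of each of the 9 genes in every library, XBS left and MOD right, with the replicate number beside each point and the mean ± SD (n = 5) as a bar. The groups are apart for Jun alone, at 215 to 309.5 CPM in XBS, against 312 to 521 CPM in MOD, and the 4 XBS libraries other than XBS 5 lie almost on 1 line for Egr1.

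Jun, the founding partner of AP-1 and a factor that can also pair with itself, was the member with the smallest p. It stood at 215, 309.5, 254, 250.5 and 280.0 CPM in XBS 1 to 5, against 312, 393, 521, 474 and 321 CPM in MOD 1 to 5. Every XBS library lay below every MOD library, although XBS 2 and MOD 1 were close neighbours, and MOD 3 and MOD 4 were the high ones. Jun averaged 262 ± 35.4 CPM in XBS and 404 ± 92.3 CPM in MOD (SD, n = 5 each), 1.54-fold lower in XBS with a log2 fold change of -0.63 ± 0.15 (SE). The 95% interval of the XBS to MOD ratio ran from 0.512 to 0.818, and the adjusted p by edgeR was 0.154. Among the 9 genes Jun alone had groups without overlap, as had 2.74% of all genes tested, with XBS wholly below MOD in 1.13%. DESeq2 called Jun (adjusted p = 0.00976) and limma voom did not (adjusted p = 0.058), and the adjusted p over all alternatives ran from 0.00976 to 0.389. Jun (ENSRNOG00000026293) lies on chromosome 5 from 114011189 to 114014277 on the minus strand in the deposited table, which names no build.

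Jund, the JUN protein made at a steady level in resting cells and known to restrain growth, differed by less. Its values were 301, 318, 321, 297 and 302 CPM in XBS 1 to 5 and 384, 317, 395, 361 and 342 CPM in MOD 1 to 5. Of the 5 XBS libraries, 3 lay below every MOD library, and MOD 2 alone reached down into the XBS range. Jund averaged 308 ± 10.9 CPM in XBS and 360 ± 31.4 CPM in MOD (SD, n = 5 each), 1.17-fold lower in XBS (95% interval of the ratio 0.767 to 0.954, edgeR adjusted p = 0.237, DESeq2 adjusted p = 0.0431). Junb, an early response gene whose protein often opposes JUN, overlapped between the groups. It stood at 155, 159.9, 159, 139.5 and 172 CPM in XBS and at 122, 138, 206, 178 and 179 CPM in MOD, with the MOD libraries on either side of all XBS libraries. Its ratio of XBS to MOD was 0.955 with a 95% interval of 0.782 to 1.17 (edgeR adjusted p = 0.849).

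Levels can be compared between genes only per length, for which the deposited FPKM values (reads scaled to gene length and library size) were used. As the median level over 10 libraries, Jund led at 189 FPKM, followed by Jun at 101 and Junb at 89.4 FPKM. Jund stood at 180 FPKM or more in every library and did not overlap Jun, which reached at most 169 FPKM, whereas Jun and Junb overlapped. Both lay above every value of the other 6 genes. Ier3 had 24.9, Fos 21.7, Fosl2 17.1 and Egr1 10.3 FPKM, and each of these overlapped its neighbour in the order. Atf3 followed at 6.65 FPKM, overlapping Egr1, and Fosb was last at 1.21 FPKM, never above 2.32 FPKM and so below every value of Atf3. The gene length in the table for Fosl2 is 744 bases, the shortest of the 9, and its FPKM depends on that length. How a longer gene model would change the reads counted and the FPKM was not tested.

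The JUN family as a sum of Jun, Junb and Jund levels stood at 340 to 384 FPKM in XBS libraries and 388 to 519 FPKM in MOD libraries. Within it, Jun made up 23.7 ± 2.15% of the family level in XBS and 29.7 ± 3.89% in MOD, and Junb 24.8 ± 1.34% in XBS and 21.0 ± 2.81% in MOD (SD, n = 5 each). Jund made up 51.5 ± 1.93% in XBS and 49.3 ± 4.91% in MOD. Each of these shares overlapped between the groups. The FOS family of Fos, Fosb, Fosl1 and Fosl2, the partners that cannot bind DNA without a JUN protein, summed to 40.8 ± 8.07 FPKM in XBS and 43.7 ± 9.57 FPKM in MOD (SD, n = 5 each). Fos made up 54.5 ± 5.45% of it in XBS and 46.5 ± 7.41% in MOD, and Fosl2 36.9 ± 5.07% in XBS and 43.9 ± 7.88% in MOD, again with overlap. These sums and shares rest on the deposited gene lengths, that of Fosl2 included, are descriptions and were not tested.

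**Figure D2:**
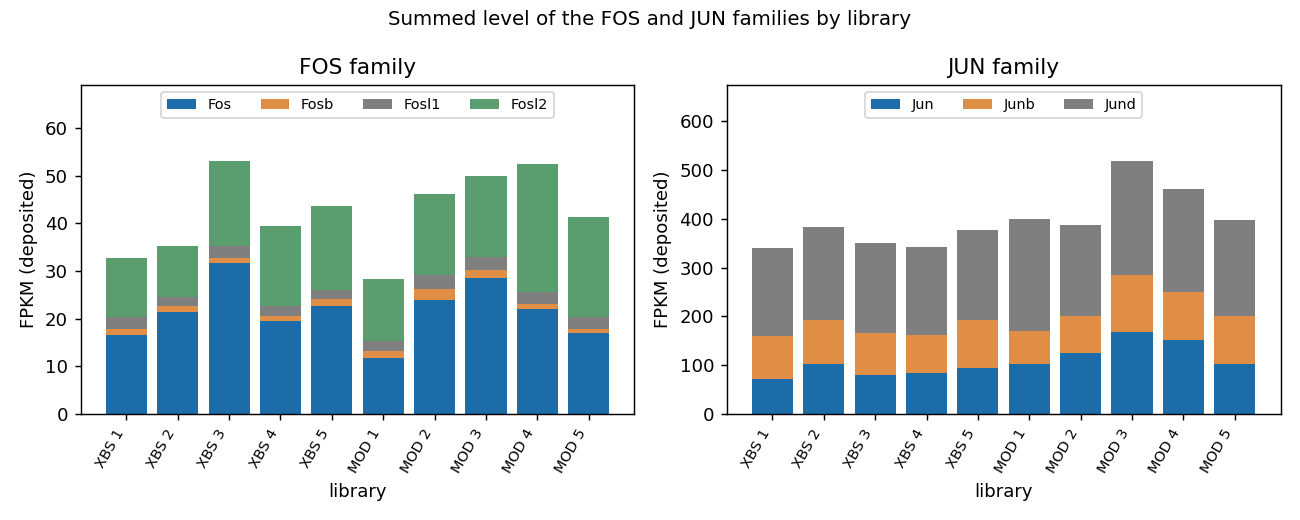
Deposited FPKM of the FOS family (left) and the JUN family (right), stacked by gene, in XBS 1 to 5 and then MOD 1 to 5. The summed JUN family is 340 to 384 FPKM in XBS and 388 to 519 FPKM in MOD, while the FOS family overlaps at 32.7 to 53.2 FPKM in XBS and 28.3 to 52.5 FPKM in MOD.

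Fos, the prototype of the early response, had a mean fold change near 1. It had 25.9, 33.7, 52.1, 30.4 and 34.9 CPM in XBS 1 to 5 and 18.4, 38.5, 45.4, 35.4 and 27.6 CPM in MOD 1 to 5. The highest value was in XBS 3 and the lowest in MOD 1, and the groups overlapped throughout. Fos averaged 35.4 ± 9.98 CPM in XBS and 33.1 ± 10.4 CPM in MOD (SD, n = 5 each), with a log2 fold change of 0.10 ± 0.24 (SE), a 95% interval of the ratio from 0.740 to 1.55 and an edgeR adjusted p of 0.880. Without XBS 3 the log2 fold change was -0.09 and without MOD 1 it was -0.05. Fos (ENSRNOG00000008015) lies on chromosome 6 from 109300433 to 109303299 on the plus strand.

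Fosb and Fosl2, the relatives of Fos that outlast it after a stimulus, were lower in XBS on average but within their spread. Fosb was scarce, at 4.44, 4.52, 3.64, 3.61 and 5.81 CPM in XBS and 6.02, 8.80, 6.37, 4.39 and 2.83 CPM in MOD, from 40 to 122 reads per library. Its highest and its lowest value were both in MOD libraries, MOD 2 and MOD 5. Fosl2 had 9.12, 7.77, 13.7, 12.3 and 12.7 CPM in XBS and 9.68, 12.8, 12.8, 20.3 and 15.9 CPM in MOD. MOD 4 was the high one, and 2 XBS libraries lay below every MOD library. The ratio of XBS to MOD was 0.775 for Fosb (95% interval 0.506 to 1.19, edgeR adjusted p = 0.573) and 0.777 for Fosl2 (95% interval 0.560 to 1.08, edgeR adjusted p = 0.474).

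Egr1, which encodes the early growth response factor and is itself a target of the serum response factor, had the largest log2 fold change of the 9 with all libraries in and the widest spread of log2 CPM. Without XBS 2, XBS 3, XBS 4, MOD 3 or MOD 4 the log2 fold change of Jun was larger in size than that of Egr1. In XBS it stood at 24.5, 24.5, 25.2 and 24.5 CPM in XBS 1 to 4 and at 59.7 CPM in XBS 5. In MOD it stood at 17.0, 44.0, 76.5, 76.8 and 40.6 CPM in MOD 1 to 5. The lowest library of all was MOD 1, and XBS 5 lay within the upper MOD range. Egr1 averaged 31.7 ± 15.7 CPM in XBS and 51.0 ± 25.7 CPM in MOD (SD, n = 5 each), 1.61-fold lower in XBS with a log2 fold change of -0.69 ± 0.40 (SE). The 95% interval of the ratio was 0.334 to 1.15 and the edgeR adjusted p was 0.473. Without XBS 5 the log2 fold change was -1.05 (edgeR adjusted p = 0.276). XBS 5 also stood apart in summed markers of other cell types. Its fibroblast markers were at 8455 CPM, against 2667 to 5045 CPM in the other libraries, and its smooth muscle markers at 3676 CPM, against 1167 to 2208 CPM. Its cardiac markers were at 409.9 CPM, against 301 CPM in MOD 4 and 37.4 to 108 CPM in the remaining libraries. Its alveolar type 2 markers were at 15724 CPM, against 23540 to 32066.5 CPM in the other libraries. Without MOD 4 and XBS 5, the libraries highest in cardiac markers, the log2 fold change of Egr1 was -0.85 (edgeR adjusted p = 0.521). The part of these tissues in the Egr1 value was not tested. Egr1 (ENSRNOG00000019422) lies on chromosome 18 from 27657628 to 27661429 on the plus strand of the deposited table.

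The 250 bases upstream of the RefSeq start are shown for Egr1, the most variable of the genes, and for Jund and Junb, a steady and an inducible JUN gene, to set the letters beside the levels. RefSeq promoters of rat build GRCr8 matched 6 of the 10 symbols, and each run reads 5′ to 3′ along the gene, with matches to the motifs searched in capitals.
Egr1, chr18:26736828-26737077, plus strand: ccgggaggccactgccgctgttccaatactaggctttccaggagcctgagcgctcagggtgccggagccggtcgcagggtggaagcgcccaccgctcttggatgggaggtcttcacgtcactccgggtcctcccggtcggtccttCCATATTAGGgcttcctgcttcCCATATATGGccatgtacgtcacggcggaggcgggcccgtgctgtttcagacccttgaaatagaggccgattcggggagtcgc
Jund, chr16:18769772-18770021, minus strand: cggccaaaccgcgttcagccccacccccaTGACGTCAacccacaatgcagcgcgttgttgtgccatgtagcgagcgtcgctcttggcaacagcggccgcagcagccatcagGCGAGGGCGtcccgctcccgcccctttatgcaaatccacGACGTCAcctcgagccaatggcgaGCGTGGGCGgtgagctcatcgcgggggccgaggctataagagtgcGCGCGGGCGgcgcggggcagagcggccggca
Junb, chr19:40080876-40081125, plus strand: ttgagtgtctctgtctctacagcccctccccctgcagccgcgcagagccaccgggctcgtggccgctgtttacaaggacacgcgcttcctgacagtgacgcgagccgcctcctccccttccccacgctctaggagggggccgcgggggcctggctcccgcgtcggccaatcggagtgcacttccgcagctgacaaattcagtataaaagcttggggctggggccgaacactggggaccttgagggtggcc
The motifs, searched on both strands, were the CArG box, which the serum response factor binds, the AP-1 site TGANTCA, the cyclic AMP response element TGACGTCA with its 7-base form TGACGTC, which lies within it, and the EGR site GCGNGGGCG. Egr1 held 2 CArG boxes, from 105 to 96 and from 83 to 74 bases upstream of the start, and 1.5% of 33469 rat promoter windows of the same length held at least 1. Jund held the full cyclic AMP element from 221 to 214 bases upstream (1.59% of windows), a further 7-base form from 100 to 94 bases upstream (2.8% of windows) and 3 EGR sites, where 4.29% of windows held at least 1. The Jund window was 68.4% G and C, the EGR site is made almost wholly of these bases, and the share was not matched for this content. Junb held none of the motifs in its window. No AP-1 site, found in 6.34% of windows, lay in any of these 3 promoters. A match is a description of the letters and does not show binding.

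Atf3, a stress-induced factor of the CREB family that can pair with JUN proteins and often represses, had 18.8, 21.5, 19.3, 19.2 and 15.2 CPM in XBS 1 to 5. In MOD 1 to 5 it had 19.9, 17.4, 35.6, 27.5 and 13.1 CPM. MOD 3 and MOD 4 lay above all XBS libraries, and MOD 5 lay below all of them. The ratio of XBS to MOD was 0.829 (95% interval 0.582 to 1.18, edgeR adjusted p = 0.624), and without MOD 3 the log2 fold change was -0.05. Ier3, an early response gene that limits cell death and NF-kB signalling, had 33.4, 33.9, 32.5, 29.6 and 30.8 CPM in XBS and 24.4, 24.9, 36.8, 32.5 and 43.3 CPM in MOD. The XBS libraries lay in the middle of the MOD range, with a ratio of 0.989 (95% interval 0.787 to 1.24, edgeR adjusted p = 0.969).

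**Figure D3:**
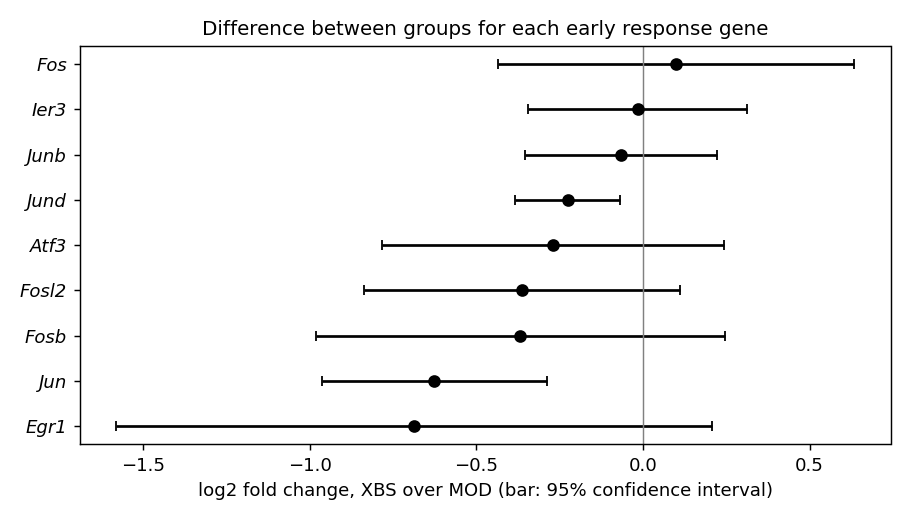
Log2 fold change of each of the 9 genes, XBS over MOD, with its 95% confidence interval. The intervals of Jun (-0.96 to -0.29) and Jund (-0.38 to -0.07) lie below 0, and the others span 0.

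The genes varied more among MOD libraries than among XBS libraries. The SD of log2 CPM was larger in MOD for 9 of 9 genes, whereas it was larger in MOD for 36.3% of all genes tested, and this difference in spread was described and not tested. The SD of Egr1 was 0.57 in XBS and 0.89 in MOD, and 13.0% of all genes tested had a larger one in XBS and 2.17% in MOD. Fosb, Atf3 and Fos had SDs of 0.27, 0.18 and 0.37 in XBS and of 0.60, 0.56 and 0.51 in MOD. Jund was the steadiest, at 0.05 in XBS and 0.13 in MOD, and 98.5% of all genes tested had a larger SD in XBS and 72.6% in MOD. The median SD over all genes tested was 0.23 in XBS and 0.19 in MOD.

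Within MOD, MOD 3 and MOD 4 were high in most of the genes and MOD 1 was low. MOD 3 lay above the gene's own mean for 9 of 9 genes and MOD 4 for 8 of 9, and XBS 4 for 0 of 9. MOD 3 was the highest of all 10 libraries for 4 genes, Jun, Junb, Jund and Atf3, and MOD 1 the lowest for 4, Fos, Junb, Egr1 and Ier3. The mean of the 9 centred log2 CPM values ran from -0.25 in XBS 1 to 0.05 in XBS 5 and from -0.28 in MOD 1 to 0.48 in MOD 3. MOD 3 and MOD 4 also had the highest summed erythroid markers (5668 and 4072 CPM), against 2013 to 3145 CPM in XBS libraries and 2174 to 3373 CPM in the other MOD libraries. The summed glucocorticoid-induced genes were highest in the same 2 libraries (2742 and 2980 CPM), against 1256 to 1644 CPM in XBS libraries and 1999 to 2425 CPM in the other MOD libraries. The rest of MOD did not follow this order. MOD 1, lowest in the mean of the 9 genes, had 2697 CPM of erythroid markers and 2390 CPM of glucocorticoid-induced genes. MOD 5 was the lowest MOD library in both sums (2174 and 1999 CPM), with a mean of -0.04 for the 9 genes. The part of blood content and of glucocorticoid-induced genes in these levels was not tested.

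**Figure D4:**
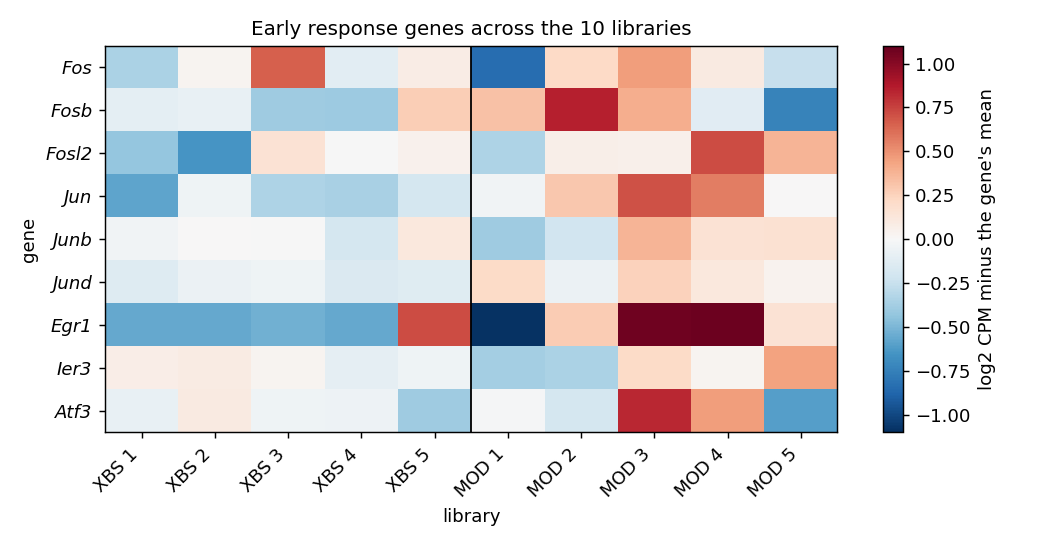
Log2 CPM of each gene minus its mean over the 10 libraries, XBS 1 to 5 and then MOD 1 to 5, red above and blue below the mean. MOD 3 is above the mean for 9 of 9 genes, XBS 4 for 0 of 9, and Egr1 has the strongest colours in both directions.

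Fos was set against each of the other 8 genes over the 10 libraries, which gave 8 relations. None passed a Benjamini-Hochberg adjustment. For Fos and Egr1 Pearson's r was 0.51 (permutation p = 0.134, adjusted 0.535) and Spearman's rho 0.67 (permutation p = 0.0398, adjusted 0.319). For Fos and Jun r was 0.31 (permutation p = 0.393, adjusted 0.629) and rho 0.37 (permutation p = 0.297, adjusted 0.627). With XBS 3 and MOD 1 left out, the libraries farthest from the median of Fos, r was 0.82 for Jun (exact permutation p = 0.0138, adjusted 0.110), 0.72 for Fosb (exact permutation p = 0.0416, adjusted 0.155) and 0.69 for Egr1 (exact permutation p = 0.0598, adjusted 0.155). For Fosb r was 0.07 over all 10 libraries, and over the 8 relations r ran from -0.26 for Ier3 to 0.82 for Jun with the 2 libraries left out. With each group centred on its mean, r was 0.69 for Jun (permutation p = 0.0260, adjusted 0.191) and 0.63 for Egr1 (permutation p = 0.0476, adjusted 0.191).

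The genes outside the set with the profile nearest to Fos, by the root mean square difference of centred log2 CPM over 10 libraries, were Myo16, Il12rb2, Kcnab2, Sncaip and Popdc3, at 0.20 to 0.24 on the log2 scale, where the profile of Fos itself had an SD of 0.40. None of these 5 is in the lists of early response genes used here. Nearest to the mean profile of the 9 genes were Ly75, an endocytic receptor of dendritic cells, Ppp1r15a, a stress-induced phosphatase subunit from the list of other early response genes, Gfm1, H6pd and Ino80, at 0.11 to 0.13 where that profile had an SD of 0.24.

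Other early response genes leaned the same way. Of 44 genes in the list 42 were tested and 32 had a negative fold change, with a median log2 fold change of -0.21. None passed by edgeR, while 13 had an unadjusted p under 0.05, of which 12 were lower in XBS and 1, Egr3, higher. Over all genes tested 5.78% were lower and 7.4% higher at that threshold. DESeq2 called 6, all lower in XBS, with 2.58% of its genes called. Limma voom with sample weights called 1, Klf6, with 0.461% called. Cebpd, a C/EBP factor of the acute phase response, had 65.3 to 98.9 CPM in XBS, against 113 to 228 CPM in MOD and was 1.86-fold lower in XBS (edgeR adjusted p = 0.0898, DESeq2 adjusted p = 0.000504). Sik1, a salt-inducible kinase that restrains CREB coactivators, had 105 to 120.3 CPM in XBS, against 130.03 to 254 CPM in MOD, 1.64-fold lower in XBS (edgeR adjusted p = 0.113). Neither overlapped between the groups. The same held for Rhob, a small GTPase gene, and for Zfp36, which encodes the mRNA-destabilizing protein tristetraprolin (1.42-fold lower, edgeR adjusted p = 0.185). XBS lay wholly below MOD in 1.13% of all genes tested. Klf6, a Kruppel-like factor induced by injury, was 1.37-fold lower (edgeR adjusted p = 0.121). Egr3, a relative of Egr1 singled out after its values were seen, was 1.65-fold higher (edgeR adjusted p = 0.366), and DESeq2 gave it no adjusted p. Egr2, another relative in this list and likewise singled out, was 1.34-fold higher (edgeR adjusted p = 0.579).

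Among 13 tested partners of AP-1, 9 had a negative fold change and none passed by edgeR. At an unadjusted p under 0.05 edgeR gave 3, beside 13.2% of all genes tested. DESeq2 called 1 (Maff), with 2.58% of its genes called, and limma voom 0, with 0.461% called. Maff and Mafk are small MAF proteins, which pair with other leucine zipper factors and lack an activating region of their own. Maff was 1.64-fold lower in XBS (18.2 to 30.4 CPM in XBS, 28.7 to 56.7 CPM in MOD, edgeR adjusted p = 0.210) and Mafk 1.25-fold lower (edgeR adjusted p = 0.209). Batf, the AP-1 partner of lymphocytes, was 1.44-fold higher at 4.11 to 6.26 CPM in XBS, against 2.39 to 4.82 CPM in MOD (edgeR adjusted p = 0.354). Summed T cell markers were also higher, at 183 to 238 CPM in XBS libraries and 131 to 181 CPM in MOD libraries, and their part in the Batf value was not tested.

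Of 21 tested upstream factors and EGR cofactors, 12 had a positive and 9 a negative fold change. None passed by edgeR. Of the 5 at an unadjusted p under 0.05, 4 were higher in XBS (Elk1, Mrtfa, Map2k1 and Rps6ka1) and 1 lower (Crem), beside 7.4% of all genes tested higher and 5.78% lower, with 1 called by DESeq2 (Elk1) and 0 by limma voom. Elk1, the partner of serum response factor that ERK kinases phosphorylate, had 36.0 to 40.2 CPM in XBS, against 28.0 to 33.5 CPM in MOD, 1.19-fold higher without overlap (edgeR adjusted p = 0.208, DESeq2 adjusted p = 0.0494), as 1.61% of all genes tested had XBS wholly above MOD. Rps6ka1, a kinase downstream of ERK, was 1.25-fold higher (edgeR adjusted p = 0.247) and Mrtfa, a coactivator of serum response factor, 1.16-fold higher (edgeR adjusted p = 0.341). Crem, whose short forms repress genes driven by cyclic AMP, was 1.29-fold lower (edgeR adjusted p = 0.237).

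Of 18 tested genes known as targets of AP-1 or EGR1, 10 had a negative fold change, with a median log2 fold change of -0.08. None passed by edgeR, DESeq2 or limma voom, though DESeq2 gave Ereg no adjusted p. Beside 13.2% of all genes tested, edgeR gave 2 of the 18 an unadjusted p under 0.05. These were Cxcl1, a chemokine gene for neutrophils, at 5.25 to 10.7 CPM in XBS, against 9.588 to 19.97 CPM in MOD (1.59-fold lower, edgeR adjusted p = 0.294), and Ereg, a ligand of the EGF receptor at the low level of 0.633 to 1.36 CPM in XBS, against 0.502 to 3.15 CPM in MOD (2.02-fold lower, edgeR adjusted p = 0.354). Areg, a related ligand also at a low level, had 0.740 to 2.22 CPM in XBS, against 1.06 to 3.33 CPM in MOD (1.78-fold lower, edgeR adjusted p = 0.396). F3, which encodes tissue factor, had a ratio of 0.666 (edgeR adjusted p = 0.435). For F3, 4 XBS libraries lay below every MOD library, while XBS 5 lay above all of them at 220 CPM. Without XBS 5 the log2 fold change of F3 was -0.96 ± 0.20 (SE, edgeR adjusted p = 0.114).

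**Figure D5:**
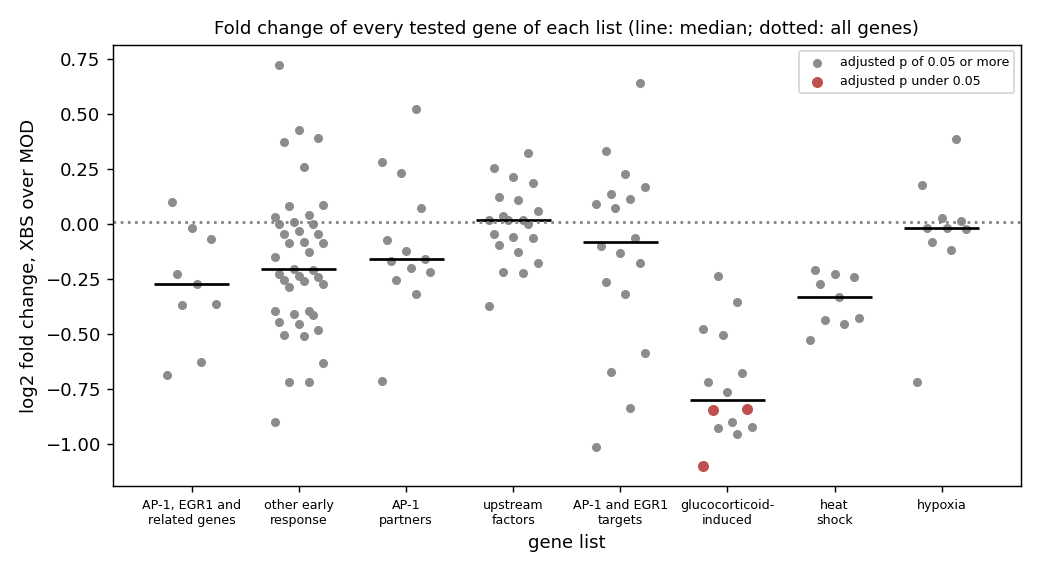
Log2 fold change, XBS over MOD, of every tested gene of 8 lists, with the list median as a line and the median of all genes tested as a dotted line. The AP-1, EGR1 and related genes have a median of -0.27, the glucocorticoid-induced genes -0.80 with 3 genes under an adjusted p of 0.05, and the upstream factors 0.02.

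Genes induced by glucocorticoids, by heat and by low oxygen were read beside these values. Of 14 tested glucocorticoid-induced genes 14 had a negative fold change, with a median log2 fold change of -0.80; by edgeR 3 fell, Per1, Klf15 and Nfkbia, 0 rose and 11 did not pass. By edgeR 0.0489% of all genes tested fell. DESeq2 called 9 of the 14, with 2.58% of its genes called, and limma voom called 4, with 0.461% called. Dusp1, Sgk1, Cebpd and Zfp36 belong both to this list and to that of the other early response genes. Per1, a period gene of the clock that glucocorticoids induce, averaged 75.0 ± 8.48 CPM in XBS and 161 ± 21.4 CPM in MOD (SD, n = 5 each, edgeR adjusted p = 0.00455). Klf15, a Kruppel-like factor, was 1.79-fold lower (edgeR adjusted p = 0.00455), as was Nfkbia, the inhibitor of NF-kB (1.79-fold, edgeR adjusted p = 0.0445). The call of Nfkbia was lost without any 1 of XBS 1, XBS 2, XBS 3, XBS 4, MOD 2, MOD 3 and MOD 4, with an edgeR adjusted p of 0.0823 to 0.167. Tsc22d3, which encodes the leucine zipper protein GILZ, was 1.89-fold lower and passed by DESeq2 (adjusted p = 4.65e-05) and limma voom (adjusted p = 0.0362) but not by edgeR (adjusted p = 0.0858). The summed level of the 14 genes was 1256 to 1644 CPM in XBS, against 1999 to 2980 CPM in MOD.

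All 9 tested heat shock and chaperonin genes had a negative fold change, with a median log2 fold change of -0.33, none passed by edgeR, DESeq2 or limma voom, and 0 had an unadjusted p under 0.05. Hsp90aa1 and Hspe1, which encode a cytosolic and a mitochondrial chaperone, were 1.35-fold and 1.34-fold lower (edgeR adjusted p = 0.388 for both). Of 10 tested hypoxia genes 6 had a negative fold change, with a median log2 fold change of -0.02, and none passed by edgeR. By edgeR 1 of them, Ddit4, had an unadjusted p under 0.05, beside 13.2% of all genes tested. It was also called by DESeq2, with 2.58% of its genes called, and by limma voom, with 0.461% called. Ddit4, an inhibitor of mTOR that glucocorticoids also induce, was 1.64-fold lower (edgeR adjusted p = 0.121), and Egln3, an oxygen sensor, 1.31-fold higher (edgeR adjusted p = 0.448). The part of these responses in the levels of the early genes was not tested.

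Markers of several cell types were read in the same libraries, and in bulk lung fewer cells of a type and less RNA per cell cannot be told apart. Alveolar type 1 markers were lower in XBS in 6 of 6 genes, with summed levels of 3206 to 5219 CPM in XBS, against 5094 to 5966 CPM in MOD, and endothelial markers in 4 of 4 tested, at 1628 to 2468 CPM in XBS, against 2331 to 3394 CPM in MOD (Cldn5 was at 0 in every library). Erythroid markers were lower in 4 of 4 genes, at 2013 to 3145 CPM in XBS, against 2174 to 5668 CPM in MOD. Neutrophil markers were higher in 6 of 6, at 323 to 867 CPM in XBS, against 300.3 to 474 CPM in MOD. The median neutrophil sum was 441 CPM in XBS and 348 CPM in MOD. The XBS maximum was XBS 2 alone, and the next XBS library, XBS 3, was at 495 CPM. T cell markers were higher in 5 of 6 genes, and their sums did not overlap, at 183 to 238 CPM in XBS, against 131 to 181 CPM in MOD. B cell markers were higher in 5 of 5 genes, at 79.9 to 169 CPM in XBS, against 49.5 to 121 CPM in MOD. Macrophage markers were higher in 4 of 4 tested, at 613 to 869 CPM in XBS, against 548 to 654 CPM in MOD. The median macrophage sum was 633 CPM in XBS and 632 CPM in MOD. C1qb among these markers had groups without overlap, as 1.61% of all genes tested had XBS wholly above MOD. Smooth muscle markers were higher in 5 of 5 genes, at 1467 to 3676 CPM in XBS, against 1167 to 2208 CPM in MOD. The median smooth muscle sum was 2057.5 CPM in XBS and 1784 CPM in MOD, with the XBS maximum in XBS 5. Fibroblast markers were higher in 3 of 4 tested, at 3476 to 8455 CPM in XBS, against 2667 to 5045 CPM in MOD. The median fibroblast sum was lower in XBS, at 3840 CPM against 4294 CPM in MOD, and the XBS maximum was XBS 5. None of these marker genes passed by edgeR. At an unadjusted p under 0.05 edgeR gave 3 of 6 alveolar type 1 genes, all lower in XBS. The same held for 3 of 4 endothelial and 3 of 4 erythroid genes. It gave 1 macrophage, 1 T cell and 1 B cell gene, all higher, 1 fibroblast gene, lower, and 0 neutrophil or smooth muscle genes. Of all genes tested, 5.78% were lower and 7.4% higher at that threshold. The part of these markers in the early gene levels was not tested. The 2 XBS libraries with low club cell markers, XBS 2 (2008 CPM) and XBS 3 (2260 CPM), against 7324 to 11606 CPM in the other libraries, were left out together as an alternative. Without them the log2 fold change was -0.70 for Jun, -0.49 for Egr1 and -0.12 for Fos, which changed sign, and among the other named genes 0.31 for Batf and -0.30 for F3.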

How the data were processed

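Per the labels' protocols, RNA was isolated with Trizol and messenger RNA libraries were made by adapter ligation and PCR. The authors deposited 1 table with read counts and FPKM per gene and library, per the file headers. The submitters' processing notes name hg38, GRCh38 and mm10, human and mouse builds, and the gene identifiers are rat; no aligner, counter, strand setting or rat build is named in these sources. The deposited FPKM could be rebuilt from count, length and total to within a relative 8.82e-08. Library totals of 11998979 to 15518929 counts set the precision. No span of the 9 genes overlapped that of another gene in the table.

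Low genes were removed by filterByExpr at a minimum count of 10 and a minimum total of 15. The remaining 14320 were scaled by TMM. XBS was compared with MOD by edgeR 4.0.16 under R 4.3.3, using the robust quasi-likelihood fit (glmQLFit, glmQLFTest), and p-values were adjusted by Benjamini-Hochberg over all 14320. CPM values use the TMM-adjusted library size, and intervals of ratios are 95% intervals from the fold change and its standard error; log2 CPM used a prior count of 2. DESeq2 1.42.0 and limma 3.58.1 were alternatives, beside other scaling, filters, a replicate block and left-out libraries. The pipeline was tested on simulated data with larger fold changes than those of the 9 genes, so that test does not measure its power for these genes. Correlations used 100000 permutations, or all permutations for 8 libraries. Promoters came from the RefSeq table of GRCr8. Named genes were the 9 genes, the 4 of smallest p of each related list and of the glucocorticoid list, the 2 of smallest p of the heat shock and hypoxia lists, and genes of these lists past the threshold; 1 gene that this rule names is not reported here. The 10 symbols and the gene lists were chosen with earlier results of these data known.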

Additional observations from a re-analysis of the deposited data

Results flagged for a closer look

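Egr1 in XBS 5 stood at 59.7 CPM, while the nearest of the other 4 XBS libraries was at 25.2 CPM, a gap of 0.98 of the group's range. Cxcl1 in XBS 3 stood at 5.25 CPM, below the other XBS libraries, the nearest of which was at 9.61 CPM. Egln3 in MOD 1 stood at 5.59 CPM, above the other MOD libraries, the nearest of which was at 3.92 CPM. These were 3 of 66 groups of 5 libraries examined, and chance gives about 1 in 20.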

How the results depend on the processing

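Over 19 alternatives the log2 fold change of the 9 genes kept its sign and its side of the threshold in 160 of 171 values, 2 passed, Jun and Jund by DESeq2, and 9 changed sign. Fos turned to -0.0708 by limma voom with sample weights, and to -0.1221 without XBS 2 and XBS 3. With single libraries left out Fos ran from -0.0856 to 0.2371, below 0 without XBS 3 or MOD 1, Junb from -0.1585 to 0.0236, above 0 without MOD 3, and Ier3 from -0.1025 to 0.1097, above 0 without XBS 4, MOD 3 or MOD 5. Ier3 was at 0.0142 with the replicate block. Of the 42 other early response genes 6 passed by DESeq2 and 1 with the voom weights. Over all genes 348 passed by DESeq2, 66 with the voom weights, 1 with the replicate block (11 without it; unadjusted p under 0.05, 2070 by edgeR), 3 without XBS 2 and XBS 3, 0 without MOD 4 and XBS 5 (1340 at an unadjusted p under 0.05 by edgeR), and 4 to 15 without a single library. With single libraries left out, Egr1 ran from -1.05 to -0.49 and Jun from -0.71 to -0.52, and negative fold changes among the 9 genes from 6 to 9. All 14 glucocorticoid genes and all 9 heat shock genes stayed negative under all 19 alternatives, with 0 to 9 and 0 called. Nfkbia lost the call in 11 of 19 alternatives. Per1, Klf15 and Nfkbia each lost the call with the replicate block (adjusted p = 0.0842, 0.0842 and 0.158) and without MOD 4 and XBS 5 (0.0645, 0.0645 and 0.0836). The cause of these changes was not tested. Same-numbered libraries had correlations of their deviations of -0.125 to 0.329, and 1 of 5 XBS libraries matched its own number best, so the numbers were not taken as pairs. Of the 9 genes Fosb had the fewest reads, 40 to 122 per library.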
